A study of Homo sapiens with 3 samples.

Results

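The 10 actin and tubulin paralogs examined here are the actins ACTB and ACTG1, the alpha-tubulins TUBA1A, TUBA1B and TUBA1C, and the beta-tubulins TUBB, TUBB2A, TUBB2B, TUBB4B and TUBB6. They were listed by symbol, out of 61193 genes with a matched transcript and 19926 protein-coding genes, and their counts were read beside the number of transcripts that share their 3′ end. The genes were chosen by the counts measured in these same libraries, which were known when the list was drawn up, so levels and their relation to the 3′ end are descriptions and carry no test. RNA-seq was performed on HEK293T, an established line of human embryonic kidney cells that carries the large T antigen of SV40. In this line, 1 condition was measured in 3 biological replicates. In each replicate, 1500000 cells were seeded per flask without further treatment, cells were collected after 24 hours, and 2 µg of total RNA from 3000000 cells was made into a QuantSeq 3′ mRNA-seq library. Although the labels name genomic DNA, the protocol and the study's methods describe RNA, and the values are read as such. All samples are of 1 line, so nothing can be said of other cells.

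Actin polymerises into the filaments of the cell cortex, stress fibres and lamellipodia, and cytoplasmic beta-actin (ACTB) and gamma-actin (ACTG1) are the forms of non-muscle cells. Microtubules are built from dimers of 1 alpha- and 1 beta-tubulin. Each is encoded by a family of genes with similar coding regions and different 3′ untranslated regions. Beta-actin and several tubulins are usually counted among the housekeeping genes and are abundant in dividing cells.

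QuantSeq libraries are primed at the poly(A) tail, so their reads are drawn towards the 3′ end of each transcript. The last 30 exonic bases of the canonical GENCODE transcript of each member are given 5′ to 3′ on the coding strand of GRCh38, with the poly(A) signal in capitals. They show that paralogs of the same family end in different sequences.
ACTB: gttgAATAAAagtgcacaccttaaaaatga
ACTG1: aaggaaaAATAAAagtgctgccgtaaccaa
TUBA1A: ttgAATAAAgtattccctgtcttaaatgaa
TUBA1B: tatctcaaagtaaagtcattaacatcaaaa
TUBA1C: tcagtctttAATAAAgtattagtcacacga
TUBB: agagccaaaAATAAAtgggaattgaaaaaa
TUBB2A: ctatactAATAAAaaagcatgtgtagaaaa
TUBB2B: aatacctttAATAAAtattagttgaaaaaa
TUBB4B: agacaccaccATTAAAgcattttcatagtg
TUBB6: ataaatgacgtaagttactttgtatggtta

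These ends lie at chr7:5527148-5527177 on the minus strand for ACTB and at chr17:81509971-81510000 on the minus strand for ACTG1. Those of the alpha-tubulins are chr12:49184795-49184824 on the minus strand for TUBA1A, chr12:49127782-49127811 on the minus strand for TUBA1B and chr12:49274571-49274600 on the plus strand for TUBA1C. Of the beta-tubulins, TUBB2A ends at chr6:3153666-3153695 and TUBB2B at chr6:3224277-3224306 on the minus strand, TUBB at chr6:30725393-30725422, TUBB4B at chr9:137243678-137243707 and TUBB6 at chr18:12326587-12326616 on the plus strand. The signal AATAAA was present in 7 of the 10 ends and its variant ATTAAA in 1, TUBB4B. In TUBA1B and TUBB6 neither hexamer was found in these 30 bases, which says only that these letters are not in this window. Where present, the signal was followed by 14 to 21 further bases.

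Libraries held between 6262175 and 8521624 counts. A count of 0 allows up to 3 counts, which equal between 0.352 and 0.479 counts per 1000000 (CPM), and this limit covers counting error only. Genes of the mitochondrial genome took 9.59%, 5.70% and 25.8% of the counts of replicates 1, 2 and 3, so that replicate 3 stands apart from the others in the share left for nuclear genes. Of 8 genes that mark HEK293T, 4 were over 3 counts in every replicate, among them LIN28B with 875 to 1136 counts and INA with 460 to 672, while KRT18, NEFM and NEFL were at 0. Of 8 markers of other cell types, COL1A1 with 632 to 1129 counts and MYOD1 with 13 to 18 were over 3 counts in every replicate, and PTPRC, ALB, HBB and ACTA1 were at 0.

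To find out how the paralogs share the reads of their families, counts were summed over the listed transcripts of each gene. Together the 10 genes held 5455, 5415 and 4863 counts in replicates 1, 2 and 3, equal to 0.0777%, 0.0865% and 0.0571% of each library. TUBB2A, TUBA1A and TUBA1C were the 3 members over 3 counts in every replicate, as were 39.5% of all protein-coding genes. ACTB, ACTG1, TUBB, TUBB2B, TUBB4B and TUBB6 were at or under 3 counts in every replicate, 6 of 10 members, where 50.9% of all protein-coding genes were, so the number of low members is near the background and is not a result about them. No filter on low values was applied, and every member is described.

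**Figure D1:**
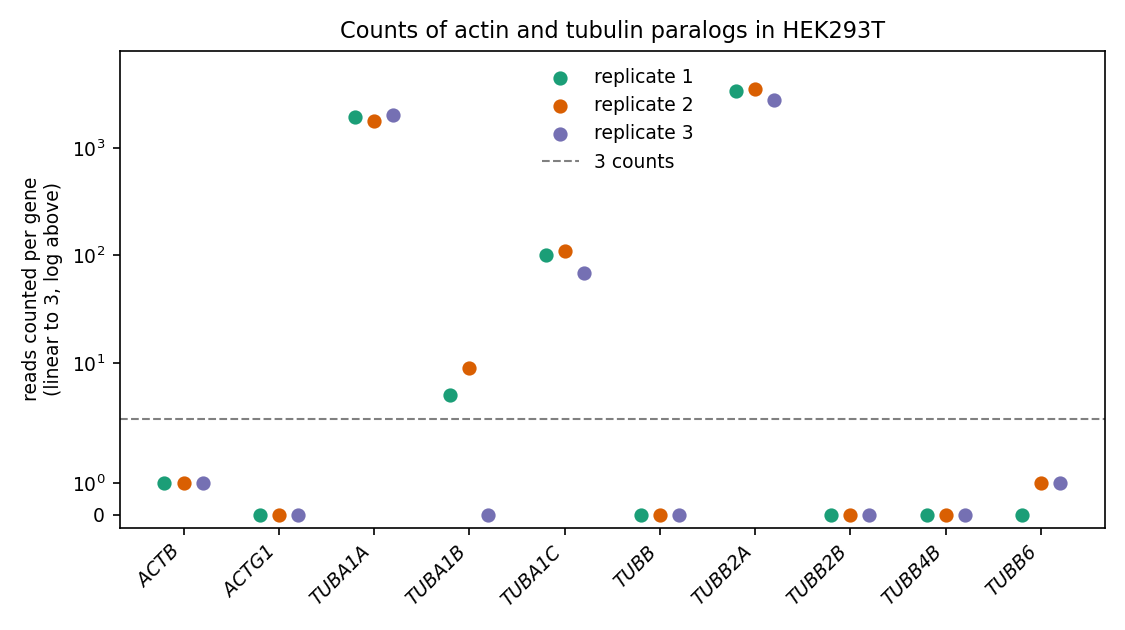
Reads counted per gene (vertical axis, linear up to 3 and logarithmic above) for the 10 paralogs, with 1 point per replicate and a dashed line at 3 counts. TUBB2A lies between 2768 and 3528 counts, TUBA1A between 1767 and 2025 TUBA1C between 68 and 109, while 6 genes stay under the line in every replicate.

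Among the beta-tubulins, TUBB2A (ENSG00000137267, chr6:3153497-3157544 on the minus strand of GRCh38), a class II beta-tubulin best known from neurons, had 3393, 3528 and 2768 counts. These values equal 483, 563 and 325 CPM, or 457 ± 121 CPM (SD, n = 3). On the scale of transcripts per 1000000 (TPM), which divides by transcript length, the level was 463, 569 and 257, or 430 ± 159 TPM (SD, n = 3). Replicate 3 was the lowest on each scale. The level placed TUBB2A at rank 379 of the protein-coding genes by mean CPM, above 98.1% of them and next to EEF1E1 (458 CPM) and BCAT1 (457 CPM). Such ranks, here and below, compare counts, and counts over all protein-coding genes differed with the sharing of their 3′ ends. The coefficient of variation of its CPM was 26.6% between the replicates, beside 1.76% for counting noise alone.

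TUBB (ENSG00000196230, chr6:30717435-30725538, plus strand), the class I beta-tubulin made in most cells, had 0 counts in replicates 1, 2 and 3. Likewise at 0 in every replicate were TUBB2B (ENSG00000137285, chr6:3223324-3231730, minus strand), the close neighbour and near copy of TUBB2A in the class II pair, and TUBB4B (ENSG00000188229, chr9:137241287-137243707, plus strand), a class IV beta-tubulin of many tissues. TUBB6 (ENSG00000176014, chr18:12307669-12344320, plus strand), the class V beta-tubulin, had 0, 1 and 1 counts. None of these 4 genes exceeded the limit that a count of 0 allows. Whether their transcripts were absent or their reads were not counted was not tested. Of the summed counts of 10 annotated beta-tubulin genes, which were 3397, 3535 and 2776, TUBB2A held 99.8% ± 0.0853 (SD, n = 3).

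TUBA1A (ENSG00000167552, chr12:49184686-49189080, minus strand), the alpha-tubulin most abundant in the developing nervous system, led the alpha-tubulins with 1954, 1767 and 2025 counts. Its level was 278, 282 and 238 CPM, or 266 ± 24.7 CPM (SD, n = 3). In TPM it was 258, 276 and 182, or 239 ± 49.6 TPM (SD, n = 3). Replicate 3, the largest library, had the most counts but the lowest CPM and TPM. TUBA1A lay above 96.3% of the protein-coding genes by mean CPM, at rank 730, between CTDSP2 and CERK (both 266 CPM), and its coefficient of variation was 9.28% against 2.28% for counting noise.

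TUBA1C (ENSG00000167553, chr12:49188736-49274600, plus strand), a further widely made alpha-tubulin, had 102, 109 and 68 counts. This was 13.3 ± 4.83 CPM and 6.79 ± 3.10 TPM (SD, n = 3), above 78.9% of the protein-coding genes by CPM. TUBA1B (ENSG00000123416, chr12:49127782-49131397, minus strand), also known as the ubiquitous alpha-tubulin, had 5, 9 and 0 counts, or 0.717 ± 0.719 CPM and 0.488 ± 0.423 TPM (SD, n = 3). TUBA1B was therefore over 3 counts in replicates 1 and 2 only, and its SD is as large as its mean. Of 10 alpha-tubulin genes with 2069, 1895 and 2095 counts in all, TUBA1A held 94.8% ± 1.73 and TUBA1C 4.64% ± 1.28 (SD, n = 3). These are shares of counts, and whether TUBA1B transcripts were few or their reads were not counted was not tested. TUBA1A and TUBA1C overlap on opposite strands at their annotated starts, and whether reads were counted by strand is not given in the sources used here.

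Neither cytoplasmic actin exceeded 3 counts. ACTB (ENSG00000075624, chr7:5526409-5563902, minus strand) had 1 count in each of the 3 replicates, or 0.140 ± 0.0213 CPM and 0.495 ± 0.132 TPM (SD, n = 3). Its count did not vary, so these SDs reflect only the totals by which it was divided. Counting noise alone was 100% of the mean. ACTG1 (ENSG00000184009, chr17:81509413-81523847, minus strand) had 0 counts in every replicate. All 6 actin genes together, with the muscle actins ACTA1, ACTA2, ACTC1 and ACTG2, had 2, 2 and 3 counts. Whether actin transcripts were absent or their reads were not counted was not tested.

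Ordered by mean CPM, TUBB2A came first, then TUBA1A, TUBA1C and TUBA1B, and each of the first 3 lay above the next in every replicate. TUBA1B and ACTB did not differ beyond their spread, since TUBA1B was the higher in replicates 1 and 2 and the lower in replicate 3. In TPM, which divides by length and so lowers long transcripts in a 3′ end library, the order of the first 3 was the same. ACTB (0.495 TPM, from 1 count on a transcript of 425 bases) then stood above TUBA1B (0.488 TPM, mostly from a transcript of 3198 bases), and from so few counts no order between them is read. ACTB and TUBB6 had equal counts in replicates 2 and 3, and 4 members shared the last place at 0. The ratio of TUBB2A to TUBA1A was 1.74, 2.00 and 1.37 in counts, or 1.70 ± 0.316 (SD, n = 3), and 1.76 ± 0.329 in TPM. TUBB2A exceeded TUBA1C 33.3-, 32.4- and 40.7-fold in counts.

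Replicate 3 was set against the others with and without mitochondrial genes. Relative to the mean of replicates 1 and 2, the CPM of replicate 3 was 0.621-fold for TUBB2A, 0.848-fold for TUBA1A and 0.500-fold for TUBA1C. With genes of the mitochondrial genome left out of the total, the same ratios were 0.774, 1.06 and 0.623. TUBA1A was then at 308, 299 and 320 CPM and 329 ± 4.38 TPM (SD, n = 3), with replicate 3 the highest in CPM. TUBB2A and TUBA1C were lowest in replicate 3 on both scales. Without replicate 3 the mean levels were 516 TPM for TUBB2A, 267 TPM for TUBA1A and 8.48 TPM for TUBA1C. The part of the mitochondrial share in these differences was not tested, and in bulk RNA fewer cells of a kind and less RNA per cell cannot be told apart.

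Counts were then followed to single transcripts. The deposited tables listed 84 of the 109 GENCODE v44 transcripts of the 10 genes, and 9 of the 84 had any count. Transcript TUBB2A-201 took 3393, 3528 and 2766 counts, 99.98% ± 0.0417 of its gene. TUBA1A-202 took 1953, 1767 and 2021 counts, 99.9% ± 0.103, and TUBA1C-201 took all of the counts of its gene. Each of these 3 is the canonical transcript of its gene, ending at the tail given above, and no other member transcript was over 3 counts in every replicate. The few remaining counts of these genes lay on TUBB2A-202, with 0, 0 and 2, and on the retained intron TUBA1A-205, with 1, 0 and 4.

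By contrast, no count of the low members lay on a canonical transcript. In TUBA1B the canonical TUBA1B-202 was at 0, and the counts were on transcripts with retained introns, TUBA1B-201 with 3, 9 and 0 and TUBA1B-207 with 2, 0 and 0. The single ACTB count of each replicate fell on ACTB-216, a short transcript whose annotated end lies upstream, at -34704 bases from the canonical end. The TUBB6 counts fell on TUBB6-204, which ends 17704 bases downstream of the canonical TUBB6 end. The canonical transcript ACTB-217, with the tail shown first among the ends above, had 0 counts in every replicate.

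**Figure D2:**
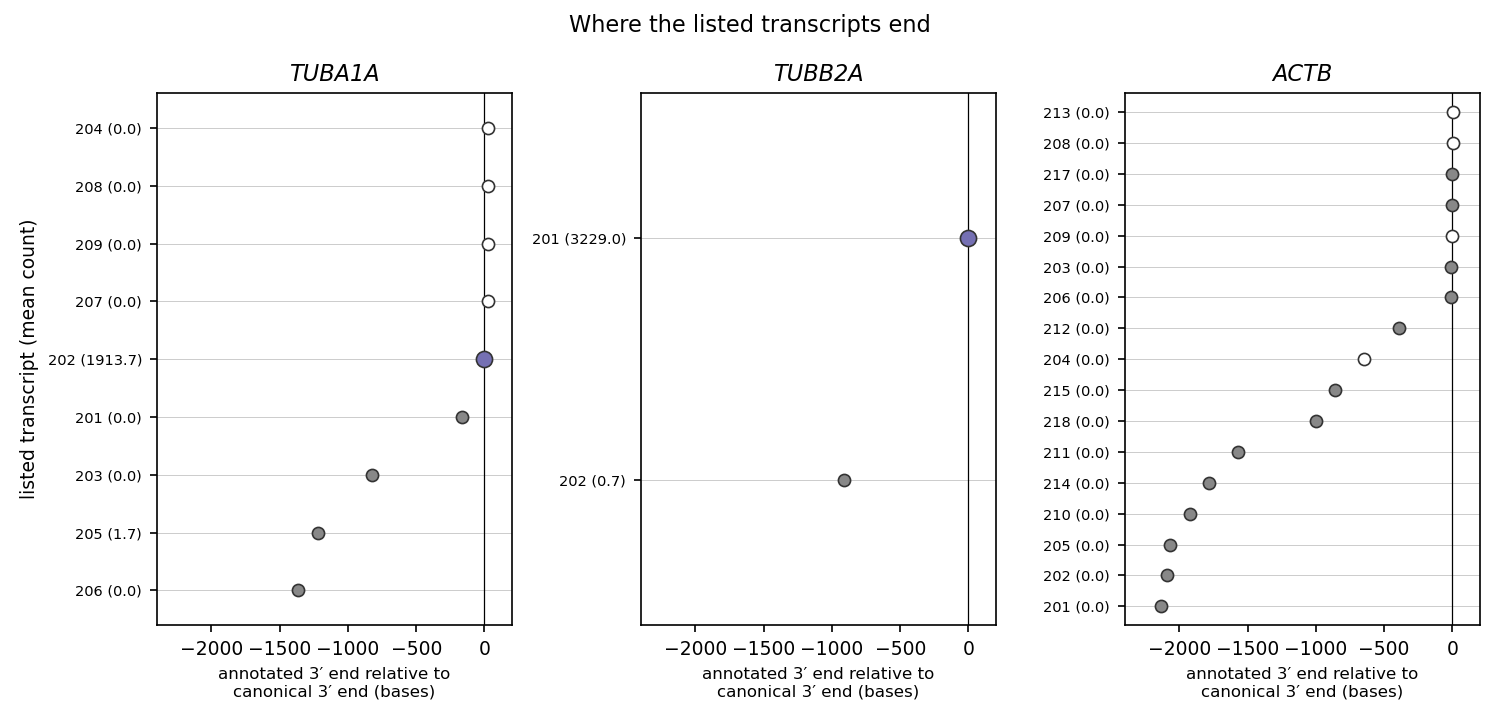
Annotated 3′ end of each listed transcript of TUBA1A, TUBB2A and ACTB relative to the canonical end (horizontal axis, genomic bases, upstream to the left), with the mean count of 3 replicates in brackets after the transcript number. Large purple points are transcripts with a mean over 3 counts, white points are transcripts whose deposited length differs from GENCODE v44, and ACTB-216 lies outside the axis. TUBB2A-201 ends apart from the other listed transcript of its gene, whereas 7 ACTB transcripts end within a few bases of each other.

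To describe how the 3′ ends are shared, the last 300 exonic bases of each canonical transcript were set against all listed transcripts on the same strand. For TUBB2A and TUBA1C, 1 transcript covered these bases and all 300 lay in that transcript alone. ACTG1 had 11 transcripts over its end, ACTB 7, TUBA1A 6, TUBB 4, TUBA1B and TUBB6 3 each, and TUBB2B and TUBB4B 2 each. Bases lying in a single transcript numbered 0 for ACTB, ACTG1, TUBA1A and TUBB, 1 for TUBB4B, 4 for TUBA1B, 6 for TUBB2B and 53 for TUBB6. Thus 2 of the 3 members over 3 counts in every replicate had an end that no other listed transcript covered, and TUBA1A was the exception.

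The exception depended on the annotation release. Deposited lengths differed from those of GENCODE v44 for 20 of the 84 transcripts. In TUBA1A, 4 such transcripts, TUBA1A-204, TUBA1A-207, TUBA1A-208 and TUBA1A-209, end 24 bases beyond the canonical end in v44, but the deposited lengths are shorter, such as 628 bases compared with 1782 for TUBA1A-209. When only transcripts of unchanged length were counted, an alternative chosen after seeing the data, 2 transcripts covered the end of TUBA1A, and 164 of its last 300 bases lay in TUBA1A-202 alone. The ends of ACTB and ACTG1 were then covered by 4 and 5 transcripts, with 3 and 18 bases in a single one, and the other 7 members had the same values. TUBA1C-201 itself was listed with 3001 bases, against 2823 in v44, and was kept as the canonical transcript.

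**Figure D3:**
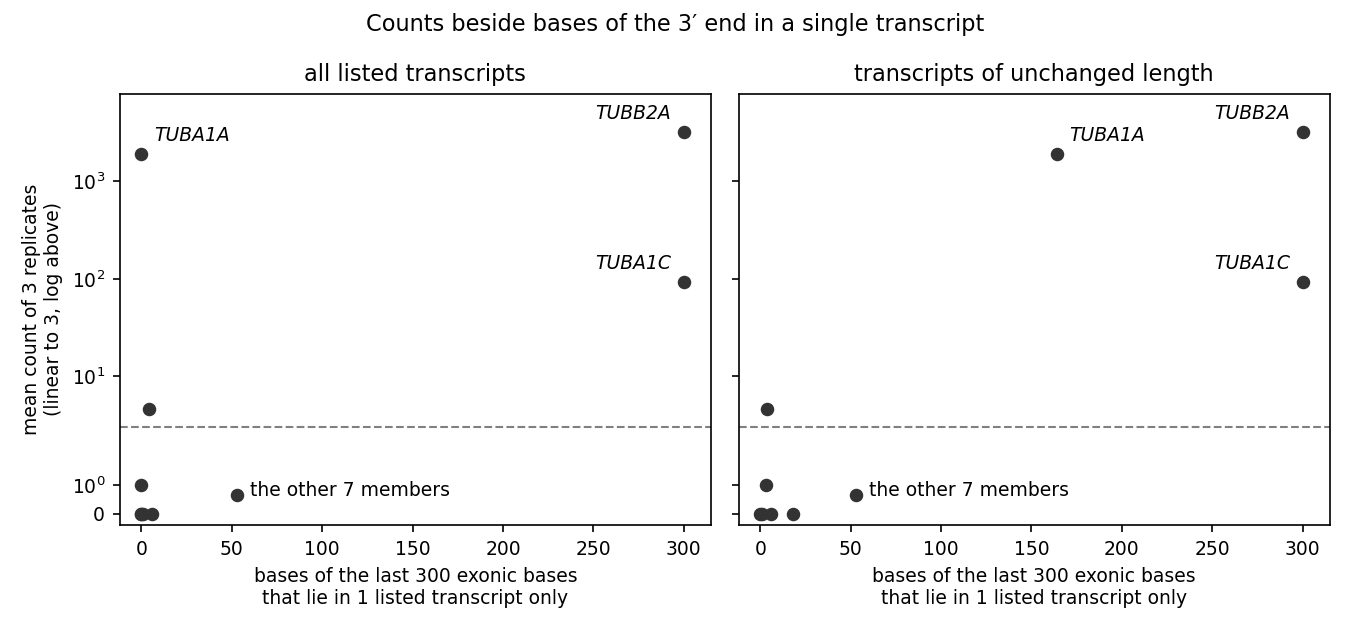
Mean count of 3 replicates (vertical axis, linear up to 3 and logarithmic above, dashed line at 3) against the number of the last 300 exonic bases that lie in 1 listed transcript only, for the 10 paralogs, with all listed transcripts at the left and with transcripts of unchanged length at the right. TUBB2A and TUBA1C lie at 300 bases in both panels, TUBA1A moves from 0 to 164, and the other 7 members lie at 53 bases or fewer with mean counts under 5.

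Reads were 75 bases long, so each transcript was also described by its longest stretch of bases found in no other listed transcript on its strand, with only transcripts of unchanged length in the comparison. Of the 84 member transcripts, 26 had no such base and 19 had a stretch of 1 to 74 bases, and the transcripts of both kinds were at 0 in every replicate. The other 39 had a stretch of at least 75 bases and held all of the 5455, 5415 and 4863 counts, although 30 of them were at 0. With all v44 structures in the comparison, TUBA1A-202, whose stretch was then 2 bases, was the only transcript with counts and a stretch under 75 bases.

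Transcripts of the whole series showed the same division. Of the transcripts of unchanged length, 68482 (32.6%) had no base of their own and held 0, 0 and 3 counts in the 3 replicates. A further 28836 with a stretch of 1 to 74 bases held 0.217% ± 0.0262 of the counts, and 112938 with a longer stretch held 99.8% ± 0.0261 (SD, n = 3). The members were therefore not particular in this respect. Counted within the last 300 bases of each transcript, 13 member transcripts had a stretch of at least 75 bases and held 5452, 5406 and 4861 counts, 99.9%, 99.8% and 99.96% of those of the members. Over all transcripts of unchanged length the same class held 97.8%, 97.7% and 98.1% of the counts, while 887 transcripts with no base of their own in the last 300 were over 3 counts in every replicate. How reads that fall on several transcripts were counted is not given in the sources used here, and its part in the absence of counts was not tested.

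For genes rather than transcripts, the median count was 23.8 for the 7600 protein-coding genes with 1 listed transcript over the last 300 bases. It was 0.667 for 4347 genes with 2 transcripts there, 0.333 for 5032 genes with 3 to 5 and 0.667 for 2372 genes with 6 or more. At or under 3 counts in every replicate were 36.8%, 58.4%, 62.0% and 59.4% of these genes. TUBB2A with a mean of 3230 counts and TUBA1C with 93.0 were above the median of their class, and so was TUBA1A with 1915 in the last one. These classes follow all v44 structures, and the counts of a gene can lie on transcripts other than the canonical one.

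Sequence repeated in the genome gave another order. All 31-base words of each canonical transcript were searched on both strands of GRCh38. Of the words of TUBB2A, 67.0% occurred more than once, compared with 60.4% for TUBA1A, 41.1% for TUBA1C and 68.4% for TUBA1B. The proportion was 45.7% for ACTB, 27.9% for ACTG1, 40.2% for TUBB, 55.4% for TUBB2B, 23.6% for TUBB4B and 6.76% for TUBB6. TUBB2A, the member with the most counts, was thus among those with the most repeated sequence, and TUBB6, with 0 to 1 counts, had the least.

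In the last 300 bases, repeated words made up 25.6% in TUBB2A, 39.6% in TUBA1A and 26.3% in TUBA1C. They made up 67.0% in ACTB, 31.5% in ACTG1, 25.2% in TUBA1B, 21.1% in TUBB and 40.0% in TUBB4B, and 0 of 270 words in TUBB2B and TUBB6. The values of TUBB2A, TUBA1A and TUBA1C lay within the range of the other members, and a relation to the counts was not tested. Words found in another member made up 58.0% of TUBA1A, 65.6% of TUBA1B, 62.9% of TUBB2A and 52.7% of TUBB2B, but 4.26% of ACTB and 4.02% of ACTG1. In the ends, words of ACTB, ACTG1, TUBA1C, TUBB, TUBB2B and TUBB6 occurred in no other member. The share found in another member was 25.6% for TUBB2A, 20.4% for TUBA1A, 22.2% for TUBA1B and 11.1% for TUBB4B.

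Processed pseudogenes, which are copies of spliced mRNAs inserted elsewhere in the genome, are frequent in these families. There were 62 named after actins or tubulins, with 664, 663 and 758 counts in all, of which 6 were over 3 counts in every replicate and 37 were at 0. TUBAP2 (chr11:90282560-90284172, plus strand), an alpha-tubulin pseudogene listed with 1 transcript, had 562, 547 and 594 counts, 73.5 ± 16.9 TPM (SD, n = 3). It alone took more counts than 8 of the 10 paralogs in every replicate, and 22.2% of the words of 31 bases in its last 300 bases, or 36.3% over its whole length, are found in TUBA1B, so its counts are uncertain. TUBBP1, with 48.9% of the words of its end and 45.5% of all its words found in TUBB, had 25, 38 and 23 counts. ACTG1P17 with 27, 16 and 73 counts and ACTG1P25 with 19, 32 and 42 shared under 1% of their words with ACTG1, and TUBAP14 had 7, 10 and 4 counts.

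When the counts of each member's nearest pseudogenes were added to its own, TUBA1B rose from a mean of 4.67 to 581 counts, ACTG1 from 0 to 72.3 and TUBB from 0 to 37.3. TUBB2B and TUBB4B stayed at 0, and TUBB2A at 3230. Which of these reads came from the parent gene was not tested.

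Of 20 other actin and tubulin genes, 4 were over 3 counts in every replicate, where 39.5% of all protein-coding genes were. They are described by their counts only. TUBG2, a gamma-tubulin of the centrosome, had 141, 109 and 233 counts, and TUBE1, the epsilon-tubulin of centrioles, had 38, 34 and 109. TUBD1, the delta-tubulin, had 4, 5 and 9 counts and TUBB4A, a beta-tubulin of the brain, 4, 6 and 6. The other gamma-tubulin TUBG1, the neuronal TUBB3 and TUBA4A were at 0, and TUBA8 had 8, 8 and 2. Every beta-tubulin and alpha-tubulin outside the members thus had far fewer counts than TUBB2A and TUBA1A. As for the members, no level is read from a count of 0, and its cause was not tested.

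Genes that fold, bind or nucleate actin and tubulin were examined as lists, 47 genes in all, of which 27 were over 3 counts in every replicate. Over all protein-coding genes this share was 39.5%, and the lists are described by their counts only. The CCT chaperonin, which folds both proteins, had 5 of 8 subunits over 3 counts, led by CCT4 with 2219, 1917 and 1571 and TCP1 with 1088, 1049 and 717. Prefoldin, which hands nascent chains to CCT, had 3 of 6, led by PFDN4 with 817, 676 and 1036 counts. The tubulin folding cofactors had 5 of 6, led by TBCC, which takes part in the release of the finished dimer, with 1229, 1055 and 1027.

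The Arp2/3 complex, which starts branched actin filaments, had 6 of 8 subunits over 3 counts, with ACTR2 at 7614, 7465 and 7245 and ARPC4 at 2565, 2595 and 1694. The gamma-tubulin ring complex, the template of new microtubules, had 5 of 8, led by its small subunit MZT1 with 6022, 5011 and 7999. Of 11 proteins that bind actin monomers or sever filaments, 3 were over 3 counts, and TMSB10, a thymosin that sequesters monomers, reached 15649, 14262 and 20909. Its paralog TMSB4X had 0, 1 and 0 counts, and the profilins PFN1 and PFN2 and the proteins CAP1, CAP2 and TWF2 were at 0. In counts, paralogs of these lists could lie as far apart as those of the actin and tubulin families, but no level is read from a 0. Of the last 300 bases, those in a single transcript numbered 300 for TMSB10 and CAP2 and 36 for TWF2. They numbered 15 for PFN1 and 0 for TMSB4X, PFN2 and CAP1. The cause of the low counts was not tested.

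With transcripts of unchanged length, 20 of the 47 genes had a stretch of at least 75 bases of their own in the canonical end, and 16 of these 20 were over 3 counts in every replicate, with a median count of 94.2. Of the 9172 protein-coding genes in that class, 55.2% were over 3 counts in every replicate, with a median of 17.7. Of 10 listed genes with a stretch of 1 to 74 bases, 4 were over 3 counts, with a median of 4, and of 17 with none, 7, with a median of 6.67. The shares over all protein-coding genes in these classes were 26.3% and 25.1%. CCT4 and PFDN2 had 202 or more counts in every replicate with shorter stretches in the canonical end. Their counts can lie on transcripts other than the canonical one. CAP2, with all 300 bases to itself, was at 0. TMSB10, MZT1 and TBCC have 1 listed transcript each, as does no member.

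**Figure D4:**
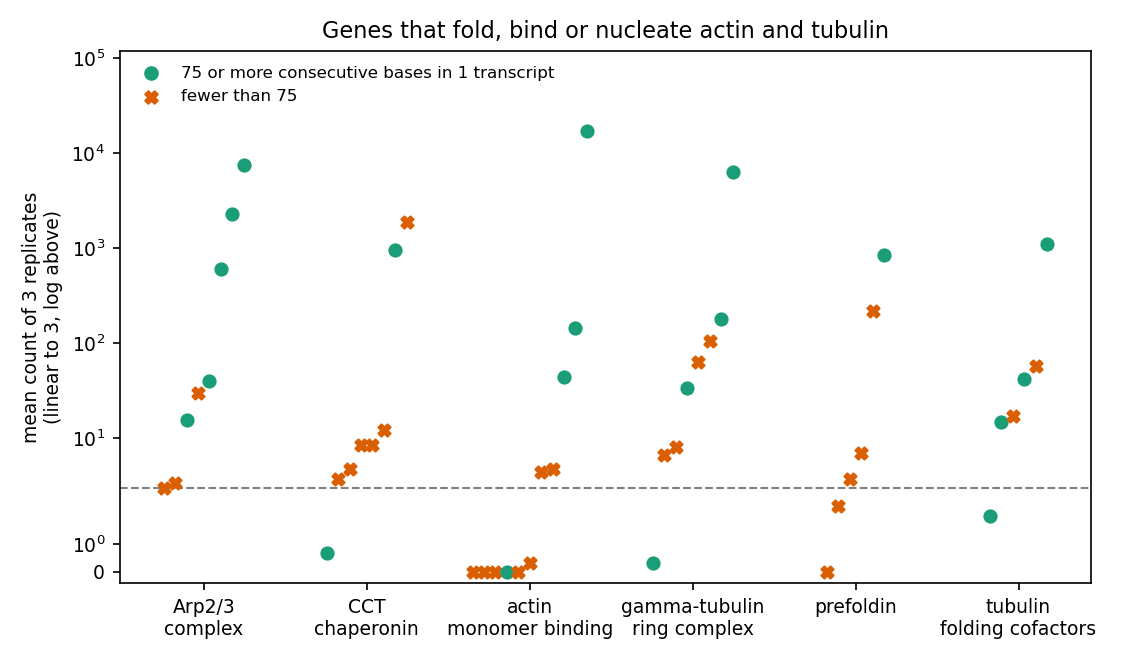
Mean count of 3 replicates (vertical axis, linear up to 3 and logarithmic above, dashed line at 3) of the 47 genes in 6 lists, 1 point per gene in order of count. Green circles are genes with at least 75 consecutive bases of the canonical end in 1 listed transcript and orange crosses are the others. In every list the gene with the highest count is a circle, except CCT4 in the CCT chaperonin.

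The study concerns i-motifs and G-quadruplexes, which form from tracts of C or G, so the promoters of the members were searched for 4 tracts of at least 3 C or 3 G with loops of 0 to 7 bases. The windows, from RefSeq on GRCh38.p14, reach 250 bases before and 50 after each start, and 13 windows of 9 member genes matched. At least 1 such sequence on either strand was found in 6 of the 13 windows, and in 26.8% of all 35116. By gene, it was found in 6 of the 9 members searched, and in 29.6% of the 27305 genes with a window. These runs are shown because they are the only members' sequences of this kind in the windows, with tracts in capitals on the coding strand, apart from 1 in TUBA1C at chr12:49264832-49264862 that has C tracts.
TUBB2A, chr6:3157575-3157594: GGGcaGGGcGGGtccccGGG
TUBB2B, chr6:3227851-3227874: CCCggtagCCCCCaCCCCtctCCC
TUBB2B, chr6:3227717-3227742: GGGGactGGGGGGctcGGGctGGGGG
TUBB, chr6:30721410-30721432: GGGcGGGGccctgcGGGGcGGGG
ACTG1, chr17:81512982-81513008: GGGGGtggcgcGGGcGGGGccgttGGG
ACTG1, chr17:81512954-81512972: GGGctGGGGGcGGGGcGGG
TUBB6, chr18:12308186-12308210: GGGGcGGGGGcGGGGGcgcggaGGG

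Runs of G on the coding strand, which place the C-rich strand on the template, were found in 5 of the 13 windows (15.5% of all windows) and runs of C in 2 (14.2%). The genes with such runs included TUBB2A with 3393 counts in replicate 1 and TUBB and TUBB2B with 0. No level can be given for members at 0, and a relation between runs and counts was not tested. The CArG box, the site of serum response factor known from actin promoters, was found in 1.29% of all windows and in ACTG1 alone among the 9 genes searched, which do not include ACTB, as CCATATATGG at chr17:81512884-81512893 on the minus strand, apart from the G runs. A match of this kind is a description of sequence and says nothing of what is bound or folded there.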

How the data were processed

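Per the labels, 3000000 HEK293T cells per replicate gave 2 µg of total RNA for QuantSeq 3′ libraries, read as 75 bases from 1 end. The submitters' processing notes name Trimmomatic 0.38.0, HISAT2 2.2.1, featureCounts and hg38. The settings for strand, for reads on several transcripts and for reads with several alignments are not given in the sources used here. The deposited counts are whole reads per transcript, not normalized, for 247541 transcripts, at 6262175 to 8521624 per library. The TPM deposited by the authors is the count divided by transcript length and rescaled to 1000000, as recomputing it showed. For 3′ end reads this division lowers long transcripts.

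Transcript identifiers were matched without version to GENCODE v44 on GRCh38. Of 223558 matched transcripts, 5.95% had another length there, and between 0.158% and 0.166% of the counts lay on unmatched ones. Counts and TPM were summed per gene, and CPM is counts per 1000000 of all listed counts. Shared bases were counted on the same strand, over the final 300 exonic bases of each canonical transcript. Over 3 counts is above what a count of 0 allows, and depth covers counting error only, as the libraries have no molecular identifiers. No group was compared, so there is no test and no p-value. The 31-base words were searched in both strands of GRCh38. The members, the gene lists and the tests were chosen with earlier results of these data known. Named are the 10 members and, by rule, genes of their families, up to 4 genes of each list, highest by mean CPM, the 5 pseudogenes with most counts and the genes nearest in level. Genes named at 0 (those of the actin monomer list among them), the neighbours of TUBA1A and exceptions to a count were picked with their values in view. TUBA3C, TUBA3D, TUBA3E, TUBA4B, TUBAL3, TUBB1, TUBB8 and TUBB8B, each at 0 or 1 count, enter only the sums. Alternatives were CPM in place of TPM, mitochondrial genes left out, protein-coding transcripts only, other windows, either strand, 50-base words, pseudogenes added and each replicate left out. The counting of shared bases was tested on made-up pairs of transcripts, and the limit of 3 counts on simulated gene counts. These held no reads on several transcripts or with several alignments, so they cannot show how such reads were counted. Software was numba 0.67.0, matplotlib 3.10.9, pandas 2.3.3 and numpy 2.4.6 under Python 3.11.15.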

Additional observations from a re-analysis of the deposited data

How the results depend on the processing

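Of 69 recomputed values, 61 stayed within the replicate spread or within 1.5 times the count, and 8 moved. Leaving out a replicate cannot shift a mean level or share by more than the replicate spread. Those values could only be scored as staying, so the tally is no measure of stability. Reversals of order were not scored apart from these. By TPM, 3 of the first 4 places were held by the same genes, which was scored as within the limit. With the counts of processed pseudogenes added, 6 members in place of 3 were over 3 counts in every replicate, and 2 of the first 4 places were held by the same genes. ACTG1 was among these 6 mostly through pseudogenes that share very few words with it. With mitochondrial genes left out, TUBA1A had 329 TPM in place of 239, and 309 CPM in place of 266, the latter an alternative chosen after seeing the data. TUBA1C had 13.3 CPM in place of 6.79 TPM. By TPM, TUBA1A-202 held 99.8% of its gene in place of 99.9%, and TUBA1A 96.8% of the alpha-tubulins in place of 94.8%. With 50-base words, 22.5% of the words of TUBAP2 in place of 36.3% occurred in TUBA1B. Leaving out each replicate gave 3 to 4 members over 3 counts, with TUBA1B the added one without replicate 3, and levels of 360 to 516 TPM for TUBB2A, 220 to 267 TPM for TUBA1A and 5.44 to 8.48 TPM for TUBA1C. The number of members with under 75 bases of their end in a single transcript was 8 with each window and strand, and 7 with transcripts of unchanged length, which was also chosen after seeing the data. No paired analysis was possible because there is 1 condition. For members at 0 to 3 counts no level and no order can be given, and the cause of these low counts was not tested.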
